A study of Mus musculus with 6 samples.

Results

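Peaks of captured methylated DNA that lie in gene deserts are described here. A gene desert peak is a peak on an assembled chromosome whose midpoint lies more than 100 kb from every gene body, counting RefSeq genes of GRCm38 of every biotype, pseudogenes and noncoding RNAs included. The rule was met by 3544 of the 84111 peaks in the list, and by 10.9% of the 32547 peaks outside gene bodies (95% Wilson interval 10.6% to 11.2%, counting error only). The other 29003 peaks outside gene bodies, which lie up to 100 kb from a gene, are the comparison throughout. The list as read here breaks off within chromosome 6 and covers 16 chromosomes, so all counts are of that part of the genome.

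The list comes from a study of primary chondrocytes, the cells of cartilage, cultured from knee articular cartilage of mice at postnatal day 3 to 5. DNA bound by the methyl-CpG-binding protein MBD2 was sequenced (MBD-seq) from 3 Control cultures, labelled Dnmt1 flox, and from 3 cKO cultures, labelled Prx1-Cre;Dnmt1 flox/flox. Both groups thus carry a floxed Dnmt1 allele, and the Cre of the cKO is driven by the Prx1 promoter, which is active in limb mesenchyme. The deposited data are 1 list of peaks over 3 merged datasets whose group is not named, with no value for any culture, so Control and cKO were not compared here and no value below has a replicate error or a test. The submitters' name for the list ascribes its regions to Dnmt1. Whether the peaks were called within a group or against another library is not given in the sources used here, so a fold may stand for methylated DNA or for an excess over such a library. No RNA was measured in the list, and chondrocyte identity could not be checked against marker genes.

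Gene deserts are long stretches of a chromosome without annotated genes. Some hold distant enhancers of developmental regulators, such as those of Sox9 and Bmp2, and many are rich in retrotransposon sequence. Most CpG dinucleotides of a differentiated mammalian cell are methylated, Dnmt1 copies that methylation onto new DNA strands, and MBD2 capture favours sequence in which methylated CpGs are dense.

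No genome sequence was used here, so the letters of the desert peaks are not shown. The sequences at hand were promoters of the desert neighbours, meaning the nearest protein-coding gene on each side of a desert, which can lie behind noncoding genes and be far off. 3 are shown, chosen after their values were seen, to set a promoter under a peak beside one without. Fsip2 and Kif2b had the highest folds among desert neighbours whose 250 bases were fully covered by a peak. Pcdh10 is the neighbour of 1 of the 10 deserts with most peaks, 2128 kb from its edge, and had no peak on its promoter. Each is the 250 bases before the transcription start on GRCm38.p6 (RefSeq), 5′ to 3′ on the strand of the gene, with CpG dinucleotides in capitals.
Fsip2: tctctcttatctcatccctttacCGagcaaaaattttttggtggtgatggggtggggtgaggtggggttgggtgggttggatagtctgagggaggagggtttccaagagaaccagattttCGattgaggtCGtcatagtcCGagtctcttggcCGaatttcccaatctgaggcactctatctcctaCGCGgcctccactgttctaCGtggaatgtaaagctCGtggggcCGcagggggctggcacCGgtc
Kif2b: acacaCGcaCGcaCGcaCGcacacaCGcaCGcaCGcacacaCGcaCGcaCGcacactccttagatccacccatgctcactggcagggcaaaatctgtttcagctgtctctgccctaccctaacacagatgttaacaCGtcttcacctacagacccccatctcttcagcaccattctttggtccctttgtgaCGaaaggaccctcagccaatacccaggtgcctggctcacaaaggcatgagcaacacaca
Pcdh10: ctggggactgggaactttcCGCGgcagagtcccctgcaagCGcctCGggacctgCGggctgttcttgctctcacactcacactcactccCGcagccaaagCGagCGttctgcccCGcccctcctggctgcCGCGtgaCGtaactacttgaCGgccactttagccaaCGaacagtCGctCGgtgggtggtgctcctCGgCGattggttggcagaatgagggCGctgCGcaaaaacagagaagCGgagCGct
Fsip2 encodes a protein of the sperm tail, and its window (chr2:82943384-82943633, plus strand) holds 11 CpGs under a peak with a fold of 39.3. Kif2b encodes a kinesin motor, and its window (chr11:91577556-91577805, minus strand) holds 12 CpGs, under a peak with a fold of 24.1. Pcdh10 encodes a protocadherin, a neuronal adhesion protein, and its window (chr3:45378148-45378397, plus strand) holds 22 CpGs and no peak.

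Gene deserts held fewer peaks than the rest of the sequence outside genes. The part of the deserts over 100 kb from any gene, called the desert core below, made up 158 Mb, or 8.11% of the 1952 Mb between the first and last peak of each chromosome, and held 4.22% of chromosome peaks. Density was 22.4 peaks per Mb in desert cores, 34.7 peaks per Mb in other sequence outside genes and 53.7 peaks per Mb in gene bodies. Desert cores thus had 0.645 of the density of other sequence outside genes and 0.417 of that of gene bodies. The core was sparser on all 16 of the 16 chromosomes covered, with 16.4 peaks per Mb on chromosome 19 at the lowest and 27.9 on chromosome 13 at the highest, whereas other sequence outside genes ranged from 29.8 to 41.0 and did not overlap with it. Peaks covered 1.22% of desert core sequence, 1.63% of other sequence outside genes and 2.38% of gene bodies. Assembly gaps were not removed from these lengths.

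**Figure D1:**
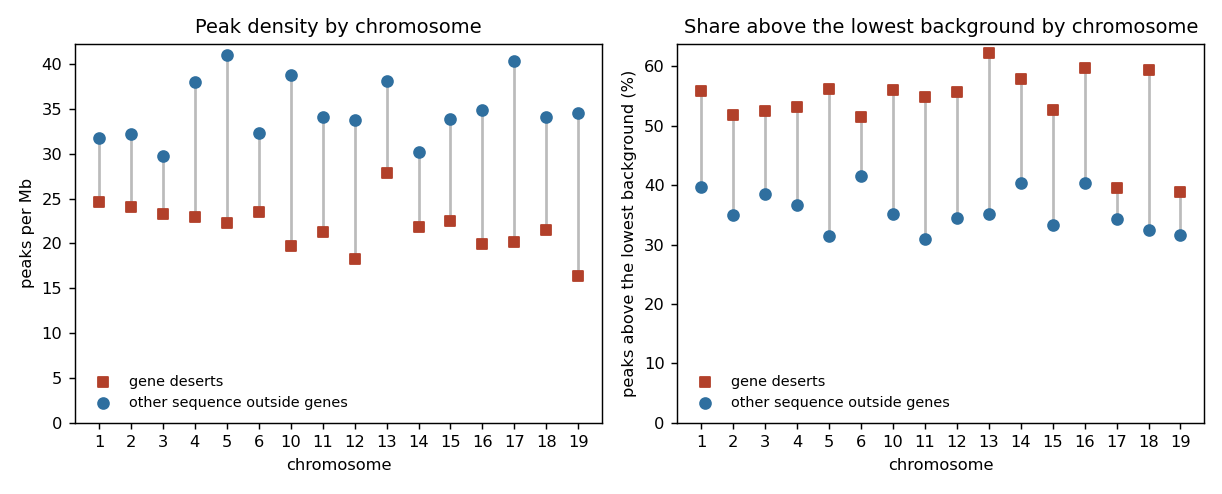
For each chromosome, the left panel plots peaks per Mb and the right panel the percentage of peaks with a background above the lowest value, in gene deserts (squares) and in other sequence outside genes (circles). Squares lie below circles on the left and above them on the right for all 16 chromosomes.

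The list divides by the background against which each peak was called, a value recovered from its fold and p-value. The lowest background, 6.37 scaled reads, was shared by most peaks of the list; the others were called against a higher value. Of the 3541 gene desert peaks whose reads could be recovered, 1933 (54.6%, 95% Wilson interval 52.9% to 56.2%) stood above that lowest value. The share was 35.8% in other peaks outside gene bodies (35.2% to 36.3%), 16.8% in gene body peaks and 25.0% in all chromosome peaks. The desert share was the higher one on 16 of 16 chromosomes, from 38.9% on chromosome 19 to 62.2% on chromosome 13, against 31.0% to 41.6% elsewhere outside genes. Values of 2 times the lowest or more made up 38.5% of gene desert peaks and 23.9% of the others outside genes, and values of 10 times or more 13.3% and 7.35%. Which reads the caller counted as background is not given in the sources used here.

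The lower density of the deserts lay in the peaks at the lowest background. Those fell from 22.3 per Mb in other sequence outside genes to 10.2 per Mb in desert cores, a ratio of 0.456, and stood at 44.7 per Mb in gene bodies. Peaks above the lowest background had nearly the same density in both, 12.2 per Mb in desert cores and 12.4 per Mb elsewhere outside genes (ratio 0.984), and 9.02 per Mb in gene bodies.

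Along the distance to the nearest gene, the change came before the 100 kb limit. Peaks at the lowest background numbered 26.2 per Mb within 5 kb of a gene, 20.1 per Mb at 20 to 50 kb, 13.8 per Mb at 50 to 100 kb and 10.3 per Mb at 100 to 200 kb. Farther out they stood at 10.0, 9.55 and 11.2 per Mb at 200 to 300 kb, 300 to 500 kb and beyond 500 kb. Peaks above the lowest background were sparsest within 5 kb of a gene (8.82 per Mb) and lay between 10.0 and 14.4 per Mb in every farther bin. Their share of all peaks was 25.1% within 5 kb, 48.5% at 50 to 100 kb, 53.6% at 100 to 200 kb, 58.9% at 200 to 300 kb and 51.2% at 300 to 500 kb. The last bin, beyond 500 kb, had 58 peaks and a share of 55.2% (95% Wilson interval 42.5% to 67.3%), an interval that takes in every bin from 50 kb on.

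**Figure D2:**
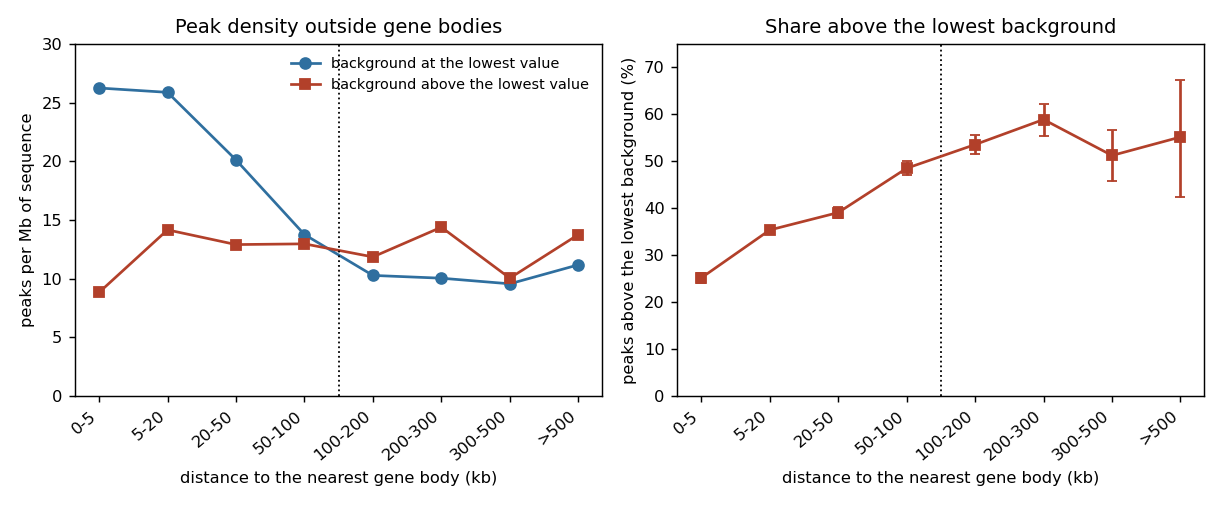
Peaks outside gene bodies by distance to the nearest gene body (kb). The left panel plots peaks per Mb at the lowest background (circles) and above it (squares), the right panel the percentage above it with 95% Wilson intervals (bars), and the dotted line marks the 100 kb limit; circles drop from 26.2 to about 10 per Mb while squares show no such drop.

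Just inside the limit were a peak of fold 23.6 on chromosome 3 at 100.06 kb from Gm18865, one of fold 4.95 on chromosome 4 at 100.07 kb from Gm32658 and one of fold 7.60 on chromosome 11 at 100.12 kb from Gm12026. Just outside were peaks of fold 5.97 on chromosome 4, 10.4 on chromosome 13 and 3.35 on chromosome 10, nearest to Gm11909, Gm32243 and Gm19162.

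Gene desert peaks were wider and held more reads. Their median width was 525 bp (quartiles 373 and 661 bp) against 436 bp (286 and 602 bp) for other peaks outside genes, and it was the larger on 16 of 16 chromosomes. The median pileup, the number of scaled reads over the summit, was 224 (quartiles 111 and 353) against 142 (77 and 283), again higher on 16 of 16 chromosomes. Within a background class the gap was smaller: at the lowest background the medians were 111.5 and 94 reads, and above it 341 and 334 reads. Median widths were 384 bp in deserts and 342 bp elsewhere outside genes at the lowest background, and 639 bp in both sets above it. Both measures rose with distance to the nearest gene before the 100 kb limit. Median widths were 392 bp within 5 kb, 493 bp at 50 to 100 kb and 525 bp at 100 to 200 kb. Median pileups in the same bins were 117, 186 and 223 reads. Against peaks in the outer 100 kb of the same deserts, described below, the ratio of median widths was 1.06.

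The fold over background, which is the authors' value, differed little when all peaks were pooled, and its direction depended on the class. The medians were 12.8 (quartiles 7.73 and 21.3) for gene desert peaks and 12.5 (8.14 and 20.5) for other peaks outside genes, a ratio of 1.02 (95% counting interval 0.990 to 1.06), with the desert median higher on 11 of 16 chromosomes. At the lowest background the desert median was the higher, 15.3 against 12.9, on 14 of 16 chromosomes (not on 6 and 18). Above it the desert median was the lower, 10.96 against 11.6, on 11 of 16 chromosomes. The pooled direction also turned under stricter q limits and with protein-coding genes only. Folds under 5 were found in 8.15% of gene desert peaks and 4.53% of the others outside genes. No peak at the lowest background had such a fold, so these shares follow in part from the background shares. Among peaks above the lowest background they were 14.9% and 12.6%. Folds of at least 20 were found in 28.0% and 26.1%. The shares of these were 34.5% and 26.1% at the lowest background, and 22.5% and 26.3% above it.

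**Figure D3:**
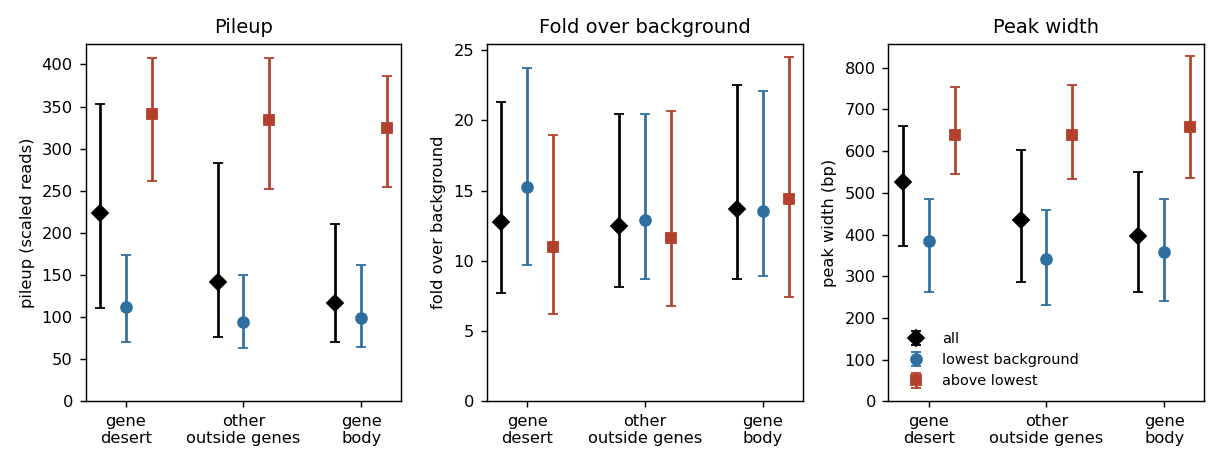
Medians (symbols) and quartiles (bars) of the pileup in scaled reads, the fold over background and the width in bp, for gene desert peaks, other peaks outside gene bodies and gene body peaks, over all peaks (diamonds), at the lowest background (circles) and above it (squares). The desert median pileup over all peaks is 224 against 142 elsewhere outside genes, while the squares of the 3 placements stand between 325 and 341.

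The 10 gene desert peaks with the highest fold stood between 41.6 and 50.2, and 9 of them were at the lowest background. The fold is divided by the background, so a choice by fold favours peaks at the lowest background. The highest, on chromosome 14 (chr14:85179711-85180284), had 369 reads and a fold of 50.2 and lay 299 kb from the nearest gene, the pseudogene Gm9264, between the protein-coding genes Pcdh17, a protocadherin, and Diaph3, a formin. The second, of fold 44.0 on chromosome 3 (chr3:16357262-16357867), lay 141 kb from Ythdf3, an RNA-binding reader of methylated adenosine, and had a background of 6.46 reads. The third, of fold 43.8 on chromosome 12, lay 159 kb from Prkd1, a protein kinase. The remaining 7 were nearest to Mtpn, Gm12004, Gm35216, Mdfic, Gm27393, Npbwr1 and Gm15403. Elsewhere outside genes the highest fold was 150.6 and at the lowest background 68.8.

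The 5 gene desert peaks with the highest recovered background had many reads and low folds. Both follow largely from the choice, since a peak called against a high background needs many reads and its fold is divided by that background. The highest background, 280 reads, was found on chromosome 2 (chr2:81461397-81462062) under 915 reads, a fold of 3.26, in the desert that ends at Zfp804a, a zinc finger gene. A peak of 2269 bp on chromosome 3 (chr3:22730001-22732269) had 1108 reads over 270 and a fold of 4.10. The largest pileup of any gene desert peak, 1353 reads over 214, belonged to a peak on chromosome 1 (chr1:141036344-141036972) between 4930590L20Rik and Gm29700, with a fold of 6.29. The lowest fold among gene desert peaks, 2.34, was found on chromosome 13 near Gm9633, with 362 reads over 154.

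The peaks were spread over most deserts. Of 980 gaps between neighbouring genes of over 200 kb, 724 (73.9%) held at least 1 gene desert peak, 194 held exactly 1 and 101 held at least 10. Those 101 held 42.1% of gene desert peaks. Empty deserts were short, with a median core of 25.7 kb against 144 kb for the occupied ones, and all 144 deserts with a core of 250 to 500 kb and all 57 with a longer one were occupied. Density changed little with the length of the core, from 25.9 peaks per Mb for cores up to 50 kb to 21.5 per Mb for cores over 500 kb. Among the 57 cores of at least 500 kb it ranged from 3.94 to 50.4 per Mb with a median of 20.3 per Mb.

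The outer 100 kb on each side of the same deserts gave a comparison within the same stretch of chromosome, added after the data were seen. They held 4875 peaks at 24.9 per Mb, so that the cores had 0.899 of the density of their own outer parts. The share of peaks above the lowest background was 54.6% in cores and 49.6% in the outer parts, a difference of 5.03 percentage points where all other sequence outside genes gave 18.8.

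The 10 fullest deserts held 276 gene desert peaks, 7.79% of them in 5.36% of the core length. The fullest, with 37 peaks in a core of 735 kb on chromosome 3, lay between Spin3-ps and 4930412E21Rik. Its nearest protein-coding genes were Tbl1xr1, a subunit of a corepressor complex, and Naaladl2. Its peaks had a median fold of 11.5 (range 3.83 to 33.0), and 21 of the 37 were above the lowest background. The second, with 35 peaks in 1111 kb on chromosome 15, had as neighbours the cadherin genes Cdh6 (1290.3 kb off) and Cdh9 (950.4 kb off), which encode cell adhesion proteins, with 19 above the lowest background. The third, on chromosome 1 at 187 kb from Brinp3, had 30 peaks, of which 22 were above the lowest background.

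The fourth, with 28 peaks on chromosome 18, had as neighbours Cdh2, a cadherin (1174.3 kb off), and Dsc3, a desmosomal cadherin (793.2 kb off). The fifth, on chromosome 2, held 27 peaks and ends at Zfp804a. The sixth, on chromosome 14, held 25 peaks, 17 of them above the lowest background. Its neighbours were the protocadherin genes Pcdh20 (2728.7 kb off) and Pcdh9 (645.2 kb off). The seventh was the densest of the 10, with 24 peaks in 400 kb on chromosome 1 (60.1 per Mb) at 42.4 kb from the potassium channel gene Kcnt2, and 20 of the 24 were above the lowest background. A desert with the neighbour Pcdh10 on chromosome 3 (24 peaks) and deserts of 23 peaks each on chromosomes 13 and 4 completed the set. That on chromosome 13 had as neighbours Chrm3, a muscarinic receptor (315.7 kb off), and Ryr2, a calcium release channel (126.3 kb off). That on chromosome 4 had Ptprd, a receptor phosphatase (1116.8 kb off), and Tyrp1, a melanin synthesis enzyme (324.8 kb off). In these last 2, 10 and 11 of the 23 peaks were above the lowest background.

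**Figure D4:**
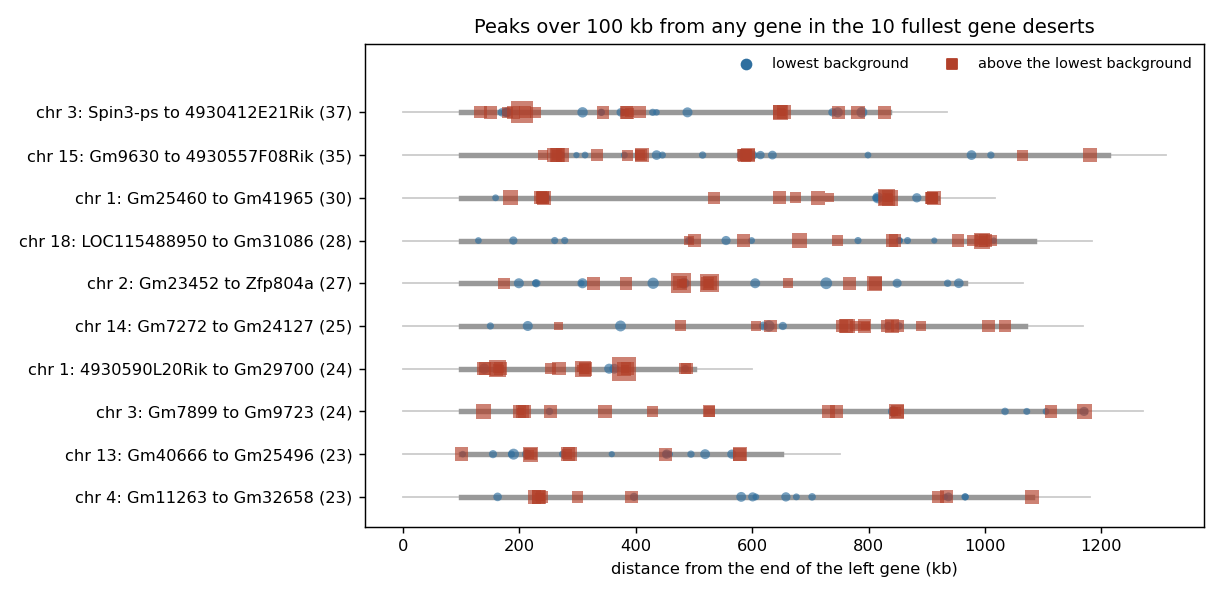
Each line is 1 of the 10 fullest deserts, with the distance from the end of its left gene in kb on the axis and the number of gene desert peaks in brackets. The thick part is the core, circles are peaks at the lowest background and squares peaks above it, the marker area grows with the pileup, and the peaks fall in groups with long empty stretches between them.

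At the other end, the sparsest core of at least 500 kb lay in a desert that ends at Hao1 on chromosome 2, with Bmp2, a ligand that drives cartilage and bone formation, as its other neighbour, with 2 peaks in 507 kb (3.94 per Mb), both above the lowest background. The next held 3 peaks in 532 kb on chromosome 6 between Gm31747 and Gm26179, and 5 peaks in 606 kb on chromosome 2. The neighbours of the latter were Kcnj3 (372.9 kb off) and Nr4a2 (330.1 kb off). The longest empty cores were 239 kb on chromosome 5 between Gm17019 and Gm21149, 215 kb on chromosome 1 between Gm46244 and Gm17946, and 211 kb on chromosome 10 between Smpdl3a and LOC100504180.

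Gene desert peaks were farther apart than others outside genes, yet many stood in tight groups. The median gap to the nearest peak was 7432 bp (quartiles 945 and 27502 bp) against 4414 bp (999 and 14492 bp). Another peak lay within 10 kb of 53.9% of gene desert peaks (52.2% to 55.5%), of 66.5% of the others outside genes (66.0% to 67.1%) and of 72.2% of all chromosome peaks. The desert share was lower on 15 of 16 chromosomes, with 22.2% on chromosome 19 at the lowest, and slightly higher on chromosome 13 (69.8% against 69.1%). Within 1 kb the shares were close, 26.1% and 25.0%. No neighbour within 50 kb was found for 11.3% of gene desert peaks and 4.44% of the others.

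Linking neighbours up to 10 kb apart gave 1669 single peaks, 405 groups of 2 or 3 and 197 groups of 4 to 10 peaks, the last holding 27.1% of gene desert peaks. The share above the lowest background was 44.2% among single peaks (41.8% to 46.6%), 50.4% in groups of 2 or 3 (47.2% to 53.7%) and 76.8% in groups of 4 or more (74.0% to 79.3%). The median pileup was 202, 218 and 271 reads in the same order, and the median fold was 13.3, 14.1 and 11.5. Peaks of a group share a few kb of sequence and are not independent of each other. Whether reads of neighbouring peaks count in the background of a peak is not known here and was not tested.

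There were 1 group of 10 peaks, 2 of 9 and 5 of 8. The largest, 10 peaks in 19.2 kb on chromosome 15 (chr15:15048467-15067626), lay in the desert with the neighbours Cdh6 and Cdh9. Its folds ran from 3.73 to 27.7 and its pileups from 48 to 444 reads. It held 3 of the 5 gene desert peaks farthest from any gene. The other 2 lay to its right, and the farthest of all (chr15:15101044-15101453) stood 635 kb from the nearest gene, the pseudogene Gm9630, with 141 reads and a fold of 19.3. Groups of 9 peaks lay on chromosome 16, with Alcam and Zpld1 as the nearest protein-coding genes, and on chromosome 3, with Snx16 and Ralyl.

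The shortest of the groups of 8, with 8.34 kb on chromosome 1 (chr1:145527340-145535682), had a regular layout. The first 4 summits followed one another at 1325, 1345 and 1328 bp. The next steps were 768 and 580 bp, then 1326 and 771 bp. Pileups were 383, 266, 388 and 276 reads for the first 4 peaks, which alternate, then 122, 394, 255 and 116 reads. The 3 wide peaks of over 700 bp thus had 383 to 394 reads, and the 3 peaks between 572 and 590 bp had 255 to 276 reads. Folds followed the second kind, at 33.5 to 34.7, against 18.1 to 19.3 for the wide peaks, whose background was 18.9 to 20.8 reads. The layout was noticed after the values were seen, and whether the sequence repeats there was not tested.

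Across all gene deserts the distances between summits fell at preferred values. Of 2325 pairs of gene desert summits up to 10 kb apart, 17.2% were 750 to 1250 bp apart, against 12.7% of pairs of other peaks outside genes and 7.85% of pairs in gene bodies. These shares depend on peak density, since denser sets have more long pairs: 11.2%, 16.7% and 25.6% lay over 7 kb in the same order. Per 100 peaks the contrast was smaller, with 5.73, 4.73 and 4.38 pairs at 750 to 1000 bp and 5.56, 4.49 and 4.16 at 1000 to 1250 bp. In bins of 250 bp, counts were also high from 1500 to 2250 bp (124 to 137 pairs a bin) and in the bins at 2750 to 3000 bp (115 pairs), 4000 to 4250 bp (90 pairs), 4500 to 4750 bp (101 pairs) and 6500 to 6750 bp (82 pairs), with lower bins between them. The bin at 6500 to 6750 bp held 2.65 times the mean of the bins 500 bp below and above it. That ratio was 1.82 for other peaks outside genes and 1.11 for gene body peaks, and the bin was above that mean on 14 of 16 chromosomes. The bin at 2750 to 3000 bp was above its own surroundings on 13 of 16 chromosomes, with a ratio of 2.09 against 1.38 and 1.05 in the other sets. Not every bin named for its count stood out by this measure. The desert ratio was 0.80 at 1500 to 1750 bp, above its surroundings on 5 of 16 chromosomes, and 1.27 at 4000 to 4250 bp. Bins with fewer pairs had higher ratios, 2.03 at 3750 to 4000 bp (79 pairs) and 1.97 at 4750 to 5000 bp (69 pairs). Beyond 7 kb the curve was flat, with 11.2% of desert pairs there. The bins were read after their values were seen, and no repeat annotation was used.

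By background class, 1320 pairs had both peaks above the lowest background and 308 both at it, and the rest had 1 of each. At 6500 to 6750 bp, 41 of the 82 pairs were both above and 5 both at the lowest. Per 100 peaks of the class, pairs of peaks above it numbered 7.71 at 750 to 1000 bp and 2.12 at 6500 to 6750 bp, and pairs at the lowest 1.06 and 0.31. Pairs at the lowest numbered 15 at 2750 to 3000 bp, against 7 and 3 in the bins on either side. That count was within the 13 to 22 pairs found in each bin from 500 to 2500 bp.

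**Figure D5:**
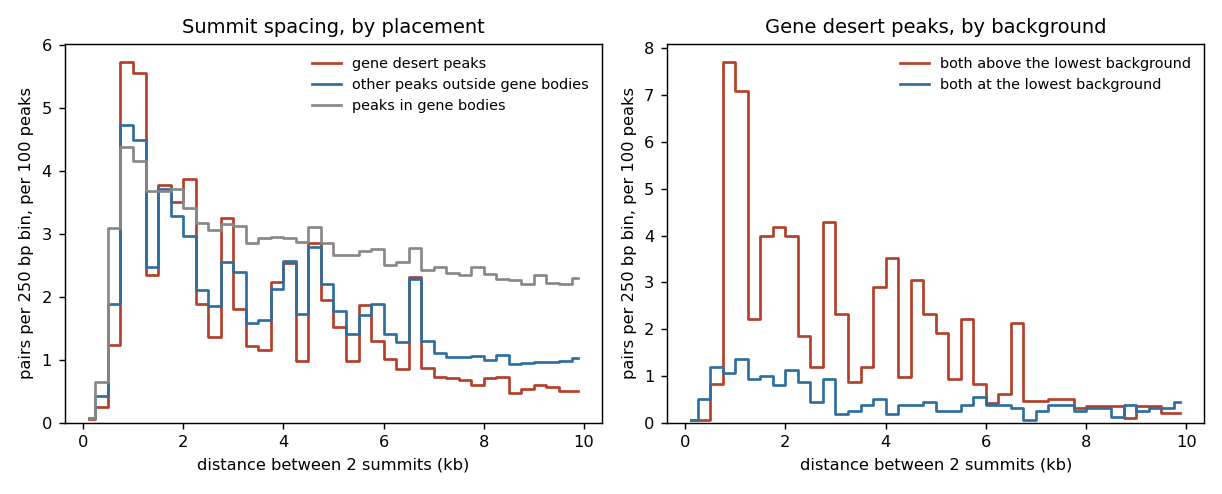
Pairs of peak summits per 250 bp bin and per 100 peaks, against the distance between the summits in kb. The left panel compares gene desert peaks, other peaks outside gene bodies and gene body peaks, the right panel gene desert pairs with both peaks above or both at the lowest background; the desert curve is highest at 750 to 1250 bp, has its last high bin at 6500 to 6750 bp and is flat beyond 7 kb.

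The genes that end at a desert were mostly not protein-coding. Of 1446 edges of occupied deserts, 43.0% were pseudogenes, 27.9% lncRNAs and 15.9% protein-coding genes, whereas gaps of at most 200 kb had 18.4% pseudogenes, 24.5% lncRNAs and 52.3% protein-coding genes at their edges. Edges of deserts without a gene desert peak had 36.3% pseudogenes and 21.3% protein-coding genes. Among the 175 protein-coding edges of known strand, the transcription start faced the desert in 54.9% (95% Wilson interval 47.5% to 62.0%), an interval that includes the 49.6% found for shorter gaps.

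The nearest protein-coding genes of occupied deserts numbered 761, which is 4.83% of the 15765 protein-coding genes on covered sequence. They were long, with a median of 74.8 kb against 17.9 kb for the others. A peak lay in the body of 73.3% of them and of 64.3% of the others. Per length the order was the reverse, with 2.28 peaks per 100 kb of gene body against 6.42. Compared at like length, the share with a peak was lower for desert neighbours in all 5 length classes, for example 52.3% (43.0% to 61.3%) against 68.9% (67.5% to 70.2%) at 10 to 30 kb and 94.2% (89.9% to 96.7%) against 96.9% (95.8% to 97.8%) at 100 to 300 kb. The intervals were apart at 10 to 30 kb and overlapped in the other 4 classes. At the promoter, here 250 bp before to 50 bp after the start, a peak was found for 17 of 583 desert neighbours (2.92%; 1.83% to 4.62%) and for 3.45% of the others, and the median number of CpGs in those windows was 16 in both. Among the 17 were Fsip2 and Kif2b, shown above. Of the 20 protein-coding neighbours of the 10 fullest deserts, 14 had a promoter in the table, and 0 of their 18 upstream windows, which held 3 to 47 CpGs, had a peak.

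Gene lists were set against the 4.83% of all protein-coding genes. A gene counts when it is the neighbour of an occupied desert, so the counts depend on where genes lie as well as on peaks, and the lists were drawn up partly from genes known to lie beside deserts. Cell adhesion and axon guidance genes were such neighbours in 36 of 46 cases (78.3%), with a median of 11 gene desert peaks in the fullest desert of each, where all 761 neighbours had a median of 4. Cdh6, Cdh9, Cdh2, Pcdh20 and Pcdh9 had the most, 25 to 35, beside long cores of 968 to 1111 kb. Those cores held 25.8 to 31.5 peaks per Mb. The genes were named for having the most peaks, so a density above the 22.4 of all desert cores follows in part from the choice. Cdh6 and Cdh9 share 1 desert, as do Pcdh20 and Pcdh9. The medians are counts that take no account of core length, and densities were not compared between lists. Developmental transcription factors were neighbours in 26 of 57 cases (45.6%), with a median of 3 gene desert peaks, below the 4 of all neighbours. The most were found for Zeb2 (16 peaks, 2140.5 kb off), Isl1 (11 peaks, 144 kb off), Pou3f3 and Tfap2d (7 each) and Nr2f1 (6 peaks). In the desert of Isl1, a regulator of motor neurons and heart progenitors, 11 of 11 peaks were above the lowest background, and in that of Pou3f3, a neural factor, 1 of 7. These were the extremes of the 5 genes named. The deserts of Zeb2, Tfap2d and Nr2f1 had 9 of 16, 5 of 7 and 4 of 6, and all gene desert peaks 54.6%. Counts of single deserts are small, and their peaks are not independent of each other. Olfactory, vomeronasal and taste receptor genes were neighbours in 2 of 898 cases, Tas2r119 and Olfr1505.

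Of the cartilage and growth plate genes, 6 of 33 (18.2%; 95% Wilson interval 8.61% to 34.4%) were neighbours of an occupied desert, with a median of 4 gene desert peaks, the same as over all neighbours. Col11a1, a collagen chain of cartilage fibrils, ends at a desert on chromosome 3 with 10 peaks, 4 of them above the lowest background, at a median fold of 16.7. The desert with the neighbour Trps1, a transcription factor of cartilage and bone growth 1117 kb off, had 9 peaks in 135 kb (66.7 per Mb). That of Gli3, a transcription factor of hedgehog signalling 88.1 kb off, had 4 peaks in 56.4 kb. The desert 118 kb from Sox9, the master regulator of chondrocytes, had 4 peaks in 289 kb on chromosome 11 (13.8 per Mb) at a median fold of 8.55, with 2 above the lowest background. The desert 227 kb from Bmp2 had the 2 peaks given above, at a median fold of 5.79. These single deserts hold few peaks, and no difference between them was tested.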

How the data were processed

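MBD-seq was made from 6 chondrocyte cultures (3 Control, 3 cKO). 1 peak list of the whole series was analysed. Per the submitters' processing notes, fastp, Bowtie2 and MACS2 were used and the builds are mm10 and GRCm38; roles, versions and parameters are not given in the sources used here. Going by how the authors named the peaks, Samtools joined 3 datasets ahead of calling. The authors deposited for each peak a fold, which is a ratio to the background, its significance as −log10 of p and of q (20.0 at the lowest for q), and a score equal to 10 times the latter, rounded down. Positions are printed 1-based. The list as read here covers 16 chromosomes. It ends in 1 incomplete line on chromosome 6, after position 88818859, and that line was dropped. It holds no peaks of chromosomes 7 to 9 or of the sex chromosomes, so these could not be analysed.

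Pileup and background were solved from fold = (pileup + 1)/(background + 1) and the Poisson p, as a MACS caller computes them, taking a whole pileup as matched within 1% of the step between pileups. 99.97% of peaks matched; 25 did not, 3 of them gene desert peaks, and these enter no read values. In 5000 simulated peaks, made with the same formula and whole pileups, 100% of pileups were recovered. That checks the solving only, and cannot show that the caller used this formula. Depth of single cultures is unknown. Intervals of shares are 95% Wilson intervals. Those of fold and width ratios are 95% intervals of the desert median, taken from binomial ranks and divided by the median of the other peaks. In these ratios and in differences of shares the value of the other peaks was held fixed. All intervals cover counting error only. Genes came from the RefSeq table of GRCm38.p6 and promoters from RefSeq sequences of that build; a promoter was found for 12543 of 15765 protein-coding genes. Tools were Python 3.11.15, numpy 2.4.6, pandas 2.3.3 and scipy 1.17.1.

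The members and the gene lists were chosen with earlier results of these data known. Named were the 10 fullest deserts, the 10 highest folds, the 5 farthest and 5 highest-background peaks, the 5 largest groups, the 3 peaks on each side of the limit, their nearest genes, and 5 genes per list. Alternatives were other distances (50 and 200 kb), placement, gene sets, −log10 q of at least 50 or 100, the median fold, merging within 500 bp, background classes, leaving out each chromosome, and neighbour distances of 5 and 20 kb. The planned count test of Control against cKO was not run, since the list has no counts.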

Additional observations from a re-analysis of the deposited data

Results flagged for a closer look

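Outside the main measurement, 143 peaks lay on 15 unplaced contigs, which the comparisons above do not use. Their distance to genes was not measured, so none could be counted as a gene desert peak. Their median pileup was 183 reads and their median width 472 bp.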

How the results depend on the processing

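No paired analysis was possible because single cultures have no values; for the same reason no replicate was left out. Values are, in this order, the share of peaks outside genes that lie in deserts (10.9%), and, desert against other peaks outside genes, the density ratio (0.645), the ratio of median folds (1.02), the difference in the share above the lowest background (18.8 percentage points), that in the share with a neighbour (-12.6 points) and the ratio of median widths (1.20). Of 179 alternative values 135 stayed within the counting interval of the value reported, 40 moved beyond it with the same direction or to no difference and 4 changed direction, all of these for the fold. Most of the values that stayed came from leaving out 1 chromosome, which keeps most of the peaks. There 15 or 16 of the 16 runs stayed for each value, so the total says little about the other changes of setting.

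The share in deserts follows the rule by construction: 23.2% at over 50 kb, 3.64% at over 200 kb, 37.2% with protein-coding genes only, 18.9% without pseudogenes, 10.1% without the 10 fullest deserts and 10.4% without chromosome 1. At over 50 kb the density ratio was 0.672. At over 200 kb the density ratio was 0.689, the neighbour difference -9.34 and the width ratio 1.19. With protein-coding genes only the fold ratio turned to 0.984, the background difference was 15.3 and the width ratio 1.15. A −log10 q of at least 50 gave 12.2%, 0.736, 0.943 (reversed), 16.2, -8.42 and 1.10 in the order above, and one of at least 100 gave 13.3%, 0.811, 0.906 (reversed), 13.2, -6.33 and 1.05. Peaks at or above the median fold had a background difference of 12.5 and a width ratio of 1.04. Peaks at the lowest background alone gave 7.95%, 0.456, 1.18, -24.6 and 1.12 for the 5 values that can be had. Those above it gave 15.7%, 0.984, 0.941 (reversed), -5.19 and 1 for the same 5. The outer 100 kb of the same deserts as comparison, added after seeing the data, gave 0.899, 5.03 for the background, -4.12 for the neighbours and 1.06 for the width. Merging within 500 bp gave a neighbour difference of -14.6, and neighbours within 5 and 20 kb gave -7.05 and -14.5. Leaving out each chromosome gave density ratios of 0.631 to 0.655 and background differences of 18.2 to 19.3 points. For changes in single values the cause was not tested.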
